A study of Saccharomyces cerevisiae with 24 samples.

Results

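The 10 genes described here are the hexose transporter genes *HXT1* to *HXT7*, the glucose sensor genes *RGT2* and *SNF3*, and *MTH1*, a gene of the sensor pathway. They were chosen by name from the 6427 genes measured, and all 10 passed the filter on low values in every comparison. The cells were *Saccharomyces cerevisiae* BY4741, a haploid laboratory strain of mating type a that carries *leu2*, *ura3*, *his3* and *met15* deletions in all groups. Laser cells were irradiated for 30 s with a UV laser while suspended in buffer, and control cells were not irradiated. RNA was sequenced at 0, 15, 30 and 60 min (T0, T15, T30 and T60) after transfer to fresh YEPD, a rich medium that holds glucose, in 3 libraries for laser and 3 for control at each time, which gives 24 libraries in 8 groups. All groups had grown in YEPD, had been washed and chilled in buffer without sugar, and went into medium warmed to 30 °C. The control portion of each culture was kept whole on ice, while the laser portion was spread over several tubes that were cooled during irradiation and then combined, so light and handling cannot be told apart. Cells at T0 were also washed cold before they were frozen, so their RNA was not fixed at the moment of transfer.

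Yeast takes up glucose by facilitated diffusion through the Hxt proteins of the plasma membrane. Hxt1 and Hxt3 are carriers of low affinity that serve cells in ample sugar, Hxt2, Hxt4, Hxt6 and Hxt7 have higher affinity and serve cells when sugar is scarce, and Hxt5 is a carrier of intermediate affinity known from slowly growing and stressed cells. Snf3 and Rgt2 resemble carriers but act as sensors, Snf3 for low and Rgt2 for high glucose, and their signal leads to the destruction of Mth1 and its paralog Std1, which help the repressor Rgt1 to hold the *HXT* genes off. The Snf1 kinase acts beside this branch, since it relieves repression by Mig1 of *HXT2*, *HXT4*, *SNF3* and *MTH1* when glucose is low.

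*HXT6* and *HXT7* are a tandem pair on chromosome IV, and their sequences are shown because they limit what a read can tell. *HXT6* lies at 1159608 to 1161320 and *HXT7* at 1154216 to 1155928, both on the minus strand of the R64 assembly of S288C and both a single exon. Their coding sequences of 1713 bases differ at 3 positions, T1632C, G1666A and T1677C, counted from 1 at the start codon with the base of *HXT6* first. Positions 1622 to 1687 hold all of them, printed here 5′ to 3′ with the differing bases in capitals (chrIV:1159634-1159699 and chrIV:1154242-1154307, minus strand).
HXT6: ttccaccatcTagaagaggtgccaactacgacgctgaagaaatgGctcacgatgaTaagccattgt
HXT7: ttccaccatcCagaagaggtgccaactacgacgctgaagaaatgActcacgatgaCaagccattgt
The first 1631 bases of the coding sequence and the 84 bases before it are the same in both genes. Of all windows of 75 bases in either coding sequence, 75 being the length of 1 read, 95% were found elsewhere in the genome. For *HXT3* this share was 8.16%, for *HXT1* 2.75%, for *HXT5* 2.64%, for *HXT4* 0.241%, and for *HXT2*, *RGT2*, *SNF3* and *MTH1* it was 0%. How reads that match both genes were assigned is not given in the sources used here. *HXT6* was given between 1.91% and 9.23% of the summed *HXT6* and *HXT7* level, with a median of 4.51%, so the split between both genes is uncertain and their sum is given beside them.

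The stretches before *HXT1*, *HXT3*, *HXT4* and *HXT5* are shown because *HXT3*, *HXT4* and *HXT5* were called between laser and control cells and *HXT1* rose in medium, as described further on. Each runs 5′ to 3′ on the coding strand over the 200 bases that begin 300 bases before the start codon in the R64 assembly (chrVIII:292726-292925, chrIV:1164761-1164960, chrVIII:288912-289111 and chrVIII:296548-296747, all on the minus strand). Capitals mark a match, on either strand, to a motif of Rgt1 (CGGANNA), of Mig1 (any of CCGGGG or CTGGGG or GCGGGG or GTGGGG) or of the stress response element (AGGGG).
HXT1: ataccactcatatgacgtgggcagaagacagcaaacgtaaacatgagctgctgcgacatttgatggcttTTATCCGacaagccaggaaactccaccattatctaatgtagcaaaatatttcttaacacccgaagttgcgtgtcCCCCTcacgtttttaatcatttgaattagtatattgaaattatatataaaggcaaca
HXT3: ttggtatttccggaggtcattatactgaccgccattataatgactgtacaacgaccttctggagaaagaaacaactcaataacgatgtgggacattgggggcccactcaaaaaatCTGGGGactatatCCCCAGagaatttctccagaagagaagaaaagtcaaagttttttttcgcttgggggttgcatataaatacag
HXT4: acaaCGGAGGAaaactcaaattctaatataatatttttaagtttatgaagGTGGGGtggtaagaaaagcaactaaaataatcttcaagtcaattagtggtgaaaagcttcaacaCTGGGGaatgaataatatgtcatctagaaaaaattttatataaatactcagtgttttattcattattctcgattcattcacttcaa
HXT5: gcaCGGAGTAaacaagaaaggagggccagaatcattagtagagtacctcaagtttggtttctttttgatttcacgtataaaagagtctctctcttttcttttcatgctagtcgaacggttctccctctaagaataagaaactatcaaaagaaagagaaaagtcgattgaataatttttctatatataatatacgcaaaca
The *HXT1* stretch held 1 Rgt1 motif and 1 stress response element, and the *HXT3* stretch held 2 Mig1 motifs. The *HXT4* stretch held 1 Rgt1 motif and 2 Mig1 motifs, and the *HXT5* stretch held 1 Rgt1 motif. Among the others, *HXT2* and *SNF3* each held 1 Mig1 motif, *HXT7* held 1 Mig1 motif and 1 stress response element, *RGT2* held 1 stress response element, and *HXT6* and *MTH1* held none of these letters. None of the marked matches overlapped. Bases outside these stretches of 200 bases were not searched, so motifs may lie elsewhere before a gene. Of 6020 such stretches before protein-coding genes, 21.0% held the Rgt1 motif, 9.5% a Mig1 motif and 16.3% the stress response element.

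Values are RPKM, reads per kilobase of gene scaled to the reads of the library, so levels can be compared between genes of different length. Library depth, recovered from the steps of low RPKM values, was 2558500 to 5394500 reads with a median of 3788500. At that depth *HXT1*, *HXT2*, *HXT3*, *HXT7* and *RGT2* had at least 80 reads in every library, while *MTH1* went down to 6 reads, *HXT6* to 5, *HXT5* to 11, *SNF3* to 14 and *HXT4* to 21. *LEU2* and *URA3*, deleted in this strain, were at the value that stands for no reads in 24 of 24 libraries, whereas *MET17*, the present name of *MET15*, which the strain's genotype lists as deleted, had an RPKM of 31.2 to 482. Replicate 1 had the lowest value of its group in 58 of 80 pairs of a described gene and a group, and replicate 3 the highest in 72 of 80. Over 6146 genes the same held in 53.0% and 54.8%, so the order was partly shared over the genome but was stronger in the described genes. The cause was not tested.

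The make-up of the transporter transcripts differed between T0 and the later times in laser and control cells. The plot of summed transporter levels shows that the summed RPKM of *HXT1* to *HXT7* averaged 3053 ± 1355 in laser cells and 2624 ± 1499 in control cells at T0 (SD, n = 3 each). At T15 it was 683 ± 239 in laser and 729 ± 237 in control cells, at T30 505 ± 184 and 708 ± 150, and at T60 948 ± 249 and 1159 ± 278. The carriers of higher affinity (*HXT2*, *HXT4*, *HXT6* and *HXT7*) made up 83.5% to 88.0% of the sum in laser libraries and 84.5% to 91.8% in control libraries at T0. Their share at T15 was 43.3% to 55.9% in laser libraries and 28.5% to 38.9% in control libraries, and at T30 20.6% to 23.8% and 14.7% to 20.3%. These ranges did not overlap at T15 or T30, and at T60 they did, with 29.8% to 34.2% in laser and 33.7% to 39.5% in control libraries. *HXT5* took 3.79% to 4.59% of the sum in laser and 0.849% to 0.931% in control libraries at T15. No test was made on these sums, since the genes were chosen with results known.

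**Figure D1:**
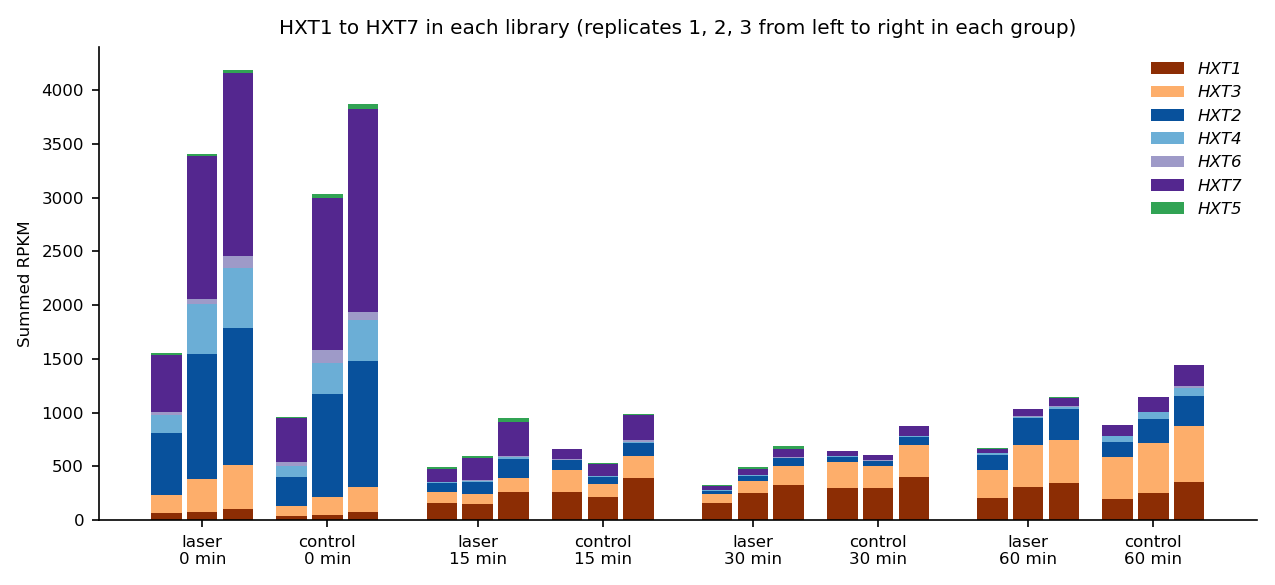
Summed RPKM (y axis) of the 7 transporter genes in each of the 24 libraries, with laser left of control at each time and 1 bar per library split by gene. Most of the T0 bars is *HXT7*, *HXT2* and *HXT4*, while *HXT1* and *HXT3* fill 72.3% to 76.0% of the laser bars and 79.4% to 84.9% of the control bars at T30.

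A gene was called where limma on log2(RPKM + 1) gave an adjusted p under 0.05 and a difference of at least 2-fold, that is 1 on the log2 scale. Fold changes on this scale understate the change of genes with low values. Between laser and control, none of the 10 genes was called at T0 by limma (0 with an unadjusted p under 0.05), where 0.017% of 5884 genes were called. At T15 *HXT5* was called higher in laser cells, 1 of the 10, where 13.1% of 5887 genes were called. At T30 *HXT5* was higher and *HXT3* lower in laser cells, 2 of the 10, where 11.8% of 5871 genes were called, and at T60 *HXT4* was lower, 1 of the 10, where 0.238% of 5877 genes were called. The shares at T15 and T30 are close to those of all genes. Called genes were mostly higher in laser cells over the whole genome, 12.3% higher and 0.815% lower at T15 and 10.6% and 1.23% at T30, and at T60 0.051% were lower. The median log2 difference of the 10 genes was 0.53 at T0, 0.28 at T15, -0.10 at T30 and -0.17 at T60, against 0.01, 0.29, 0.15 and 0.11 over all genes. Median-ratio rescaling of the libraries, which moved the median of all genes to -0.02 at T15 and T30, gave 386 higher and 192 lower calls at T15, against 725 and 48 without it, and 28 higher and 18 lower calls at T60, against 11 and 3.

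**Figure D2:**
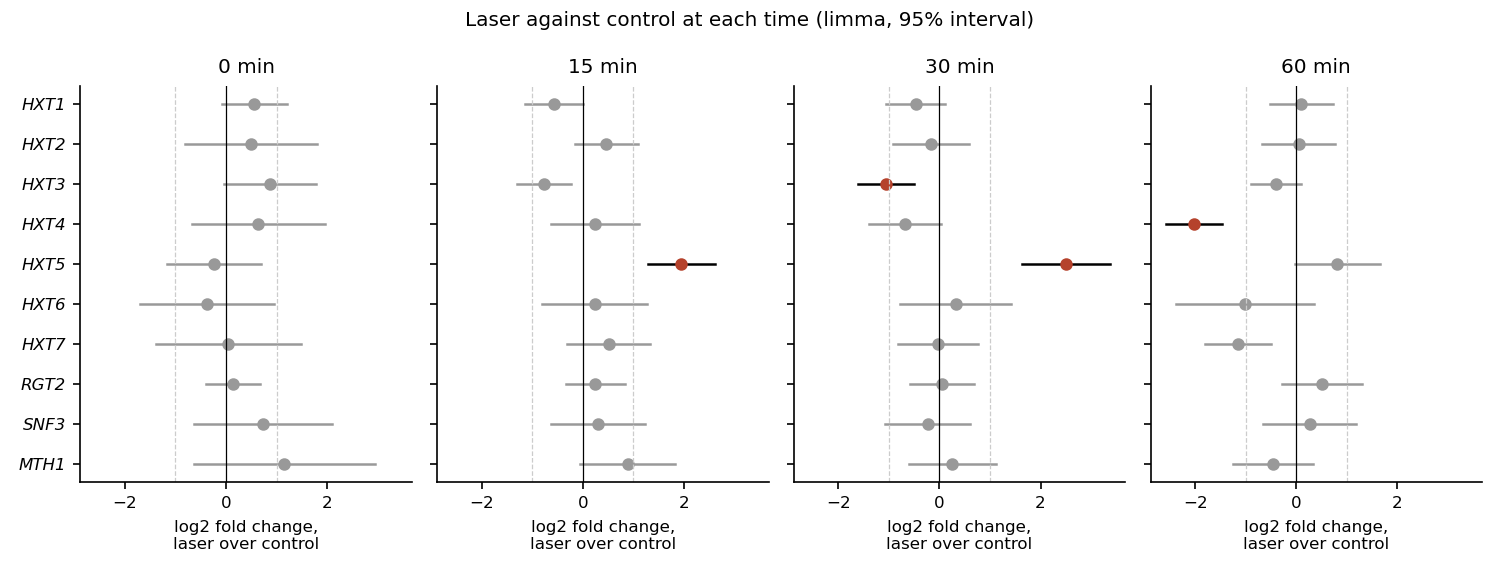
Log2 fold change, laser over control, of each of the 10 genes (rows) at 0, 15, 30 and 60 min (panels), with 95% intervals from limma, red points for called genes and dashed lines at 2-fold. The called points are *HXT5* at 15 and 30 min, *HXT3* at 30 min and *HXT4* at 60 min.

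*HXT5* had the largest laser difference of the 10 genes on the log2(RPKM + 1) scale at T15 and T30. Its level in laser cells at T15 stayed near that at T0, while control cells had a lower level at T15. At T0 its RPKM was 20.6, 24.6 and 34.0 in laser libraries and 15.5, 38.9 and 46.9 in control libraries, which overlapped. At T15 it was 22.8, 24.4 and 36.1 in laser libraries, against 6.19, 4.5 and 8.80 in control libraries, a ratio of means of 4.27. At T30 it was 10.9, 19.3 and 29.8 in laser libraries, against 2.42, 1.77 and 3.28 in control libraries, a ratio of 8.03. Every laser library lay above every control library at both times. The log2 difference was 1.95 ± 0.30 (SE) at T15 (adjusted p = 0.00105, limma) and 2.51 ± 0.39 at T30 (adjusted p = 0.00165). Both calls held under all 12 alternatives tried, with log2 differences of 1.66 to 2.16 at T15 and 2.18 to 2.88 at T30.

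The *HXT5* difference between laser and control cells was also tested on the steps between times. Control cells fell by 2.12 ± 0.38 on the log2 scale between T0 and T15 (adjusted p = 2.89e-04), and laser cells differed by 0.07 ± 0.38 (adjusted p = 0.943). The difference of these steps was 2.19 ± 0.53 (adjusted p = 0.0173), where 4.2% of 6146 genes were called. Without the libraries numbered 2 this difference was 1.86 (adjusted p = 0.706) and without those numbered 3 it was 2.10 (adjusted p = 0.0787), and without those numbered 2 the control step was -1.74 (adjusted p = 0.109). Between T30 and T60 laser cells fell by 2.06 ± 0.38 (adjusted p = 7.88e-04), which without the libraries numbered 2 had an adjusted p of 0.103, and control cells differed by -0.36 ± 0.38 (adjusted p = 0.926). With the culture as a block the control step from T15 to T30, -1.09, was called as well (adjusted p = 0.0100). At T60 *HXT5* had an RPKM of 2.5, 4.12 and 4.78 in laser libraries and 1.92, 1.41 and 1.72 in control libraries, which did not overlap but were not called (log2 difference 0.81, adjusted p = 0.625).

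*HXT3*, a carrier of low affinity at chromosome IV 1162957 to 1164660, was lower in laser cells at T30 and had the opposite order at T0. Its RPKM at T0 was 175, 310 and 410 in laser libraries and 94.5, 164 and 232 in control libraries, which overlapped. Within each culture the laser library was 1.85, 1.89 and 1.76 times the control library at T0. At T15 it was 99.2, 85.7 and 130 in laser libraries, against 213, 123 and 209 in control libraries. At T30 it was 89.1, 111 and 172 in laser libraries, against 251, 210 and 297 in control libraries, with all laser libraries below the control libraries. The log2 difference was 0.87 ± 0.39 at T0 (adjusted p = 1.0, limma, and 0.0217 with the culture as a block, under 2-fold), -0.77 ± 0.24 at T15 (adjusted p = 0.0366, under 2-fold), -1.06 ± 0.25 at T30 (adjusted p = 0.0145) and -0.40 ± 0.22 at T60 (adjusted p = 0.777, and 0.0392 with the culture as a block, under 2-fold). Within cultures the laser library was the lower in 3 of 3 at T60. The T30 call stood just past the fold limit: without laser replicate 1 the difference was -0.85 and without control replicate 3 it was -0.94, while without laser replicate 2, without control replicate 1 and with no filter the adjusted p was 0.0605, 0.0560 and 0.0807. At T15 the gene passed the fold limit after rescaling (-1.08, adjusted p = 0.00899) and without control replicate 2 (-1.02, adjusted p = 0.0103).

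Between T0 and T15 *HXT3* fell by 1.43 ± 0.33 in laser cells (adjusted p = 0.0045) and differed by 0.20 ± 0.33 in control cells (adjusted p = 0.672). The difference of these steps was -1.64 ± 0.46 (adjusted p = 0.0412). Its adjusted p was 0.0501, 0.597 and 0.0677 without the libraries numbered 1, 2 and 3, 0.0599 with no filter and 0.0576 with no variance trend. By T60 *HXT3* had reached 264, 385 and 401 in laser libraries and 390, 466 and 515 in control libraries. The step between T30 and T60 was 1.52 ± 0.33 in laser cells (adjusted p = 0.0031) and 0.86 ± 0.33 in control cells (adjusted p = 0.37), and the laser steps had an adjusted p of 0.273 at T15 and 0.203 at T60 without the libraries numbered 2.

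*HXT1*, the other carrier of low affinity, at chromosome VIII 290913 to 292625, was the 1 gene of the 10 that rose in medium within 15 min. Its RPKM at T0 was 61.9, 76.0 and 98.7 in laser libraries and 39.5, 47.2 and 76.5 in control libraries. At T15 it was 160, 154 and 258 in laser libraries and 257, 210 and 387 in control libraries, above all T0 libraries of the same treatment. The log2 step was 1.25 ± 0.31 in laser cells (adjusted p = 0.0103, and 0.217 without the libraries numbered 2) and 2.38 ± 0.31 in control cells (adjusted p = 1.16e-05). The difference of these steps, -1.13 ± 0.44, was not called (adjusted p = 0.155), but it was with the culture as a block (adjusted p = 9.41e-04) and after rescaling (-1.40, adjusted p = 0.00625). *HXT1* was not called between laser and control at any time, and the laser library was the higher of its culture in 3 of 3 cultures at T0 and the lower in 3 of 3 at T15 and T30. The log2 differences at T15 and T30 were -0.57 and -0.47 (adjusted p = 0.125 and 0.282, limma). Under 2-fold, the adjusted p was 0.00214 and 0.0252 with the culture as a block. After rescaling they were -0.89 and -0.65 (adjusted p = 0.0177 and 0.0405). From T15 on no step of *HXT1* was called, with means of 245 ± 86.1 in laser and 329 ± 61.9 in control cells at T30 and 286 ± 75.2 and 268 ± 81.3 at T60.

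**Figure D3:**
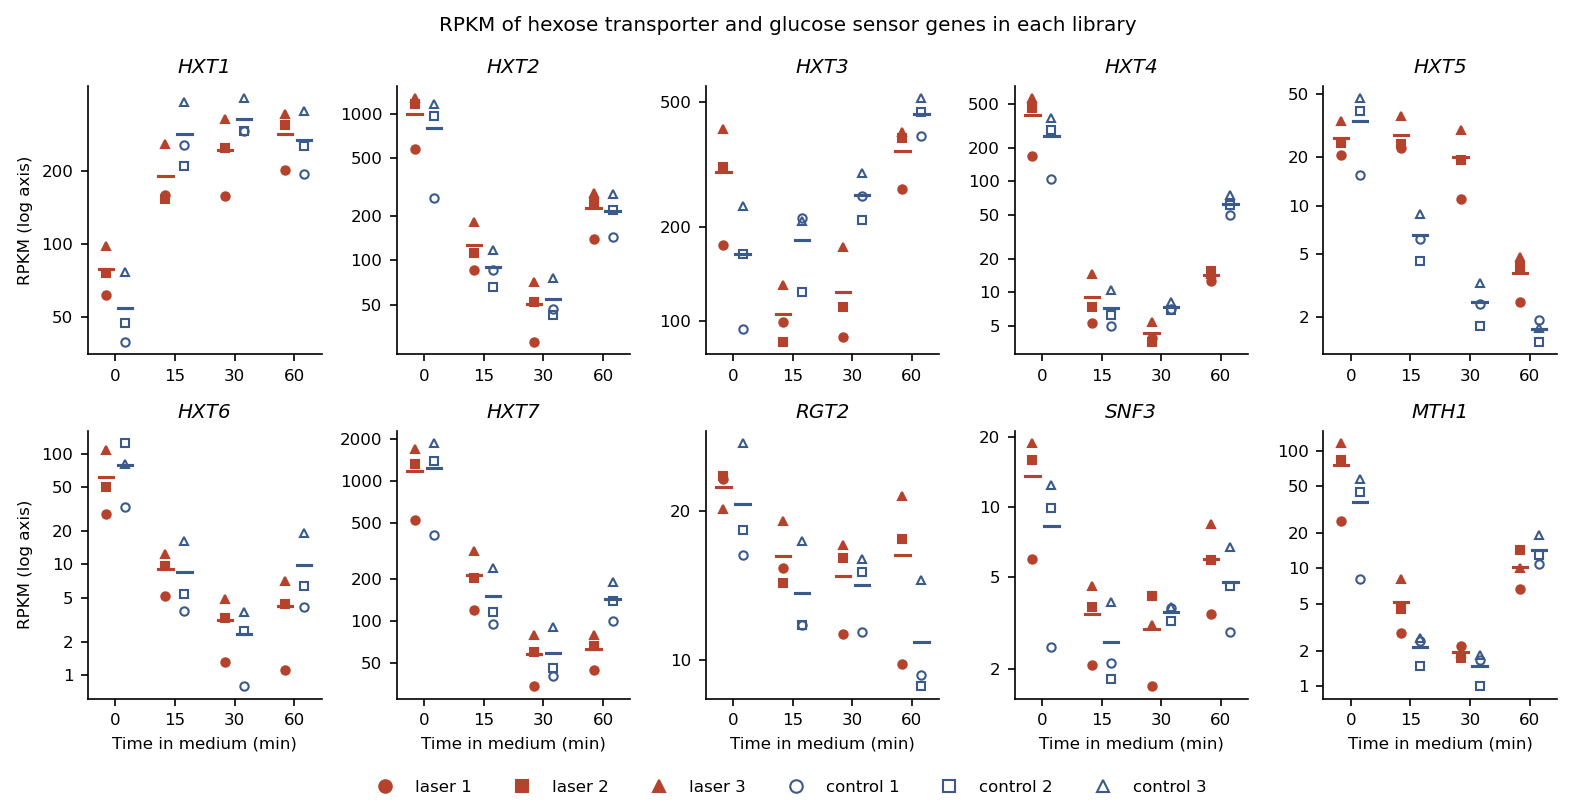
RPKM on a log axis of each of the 10 genes (panels) by time in medium, with filled red symbols for laser and open blue symbols for control libraries, the symbol shape for the replicate and a bar at the group mean. *HXT5* laser symbols lie above all control symbols at 15 and 30 min, and *HXT4* laser symbols lie below all control symbols at 60 min.

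*HXT4*, a carrier of higher affinity at chromosome VIII 287081 to 288811, had the widest swing of the genes with at least 20 reads in every library. Its level at T60 was lower in laser cells. Its RPKM at T0 was 167, 460 and 560 in laser libraries and 105, 290 and 375 in control libraries. At T15 it was 5.34, 7.44 and 14.6 in laser libraries and 4.94, 6.29 and 10.4 in control libraries, which is 43.4-fold and 35.5-fold below the T0 means. The log2 step was -5.22 ± 0.43 in laser cells (adjusted p = 4.08e-08) and -4.84 ± 0.43 in control cells (adjusted p = 7.89e-08). At T30 *HXT4* had 3.87, 3.58 and 5.4 in laser libraries and 7.0, 6.96 and 8.13 in control libraries, with laser below control but not called (-0.68 ± 0.32, adjusted p = 0.199). At T60 it had 12.7, 15.7 and 14.7 in laser libraries, against 49.7, 61.0 and 75.6 in control libraries. The control mean was 4.32-fold the laser mean at T60, a log2 difference of -2.02 ± 0.25 (adjusted p = 0.0107). The adjusted p was 0.0510 with no filter, 0.0580 without laser replicate 2 and 0.129 without control replicate 2, with a difference between -2.02 and -2.08 in these. At T0 the log2 difference of *HXT4* was 0.64, not called, with an adjusted p of 0.0281 by limma with the culture as a block (under 2-fold).

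*HXT4* rose between T30 and T60 by 1.55 ± 0.43 in laser cells (adjusted p = 0.02) and by 2.90 ± 0.43 in control cells (adjusted p = 8.87e-04), and without the libraries numbered 2 neither step was called (adjusted p = 0.434 and 0.368). The difference of the steps was -1.34 ± 0.60 (adjusted p = 0.33) and was called with the culture as a block (adjusted p = 0.0354). *HXT2*, another carrier of higher affinity, at chromosome XIII 288079 to 289704, also fell to T15 and rose to T60, and was not called between laser and control cells at any time. It had means of 1004 ± 379 in laser and 800 ± 476 in control cells at T0, 128 ± 50.1 and 90.1 ± 26.8 at T15, 50.3 ± 21.6 and 54.8 ± 18.3 at T30, and 226 ± 76.7 and 217 ± 70.7 at T60. Laser and control libraries of *HXT2* overlapped at every time, with log2 differences of 0.50, 0.47, -0.17 and 0.05 (the last -0.05 after rescaling) and 95% intervals within -0.92 and 1.81. Within cultures, the laser library of *HXT2* was the higher in 3 of 3 at T0 and at T15. With the culture as a block the T15 difference had an adjusted p of 0.0395 (limma, under 2-fold). The *HXT2* step to T15 was -2.95 ± 0.47 in laser and -2.92 ± 0.47 in control cells (adjusted p = 1.79e-04 and 1.16e-04, and 0.0663 and 0.0661 without the libraries numbered 2). The *HXT2* step between T30 and T60 was 2.18 ± 0.47 in laser cells (adjusted p = 0.00344) and 1.96 ± 0.47 in control cells (adjusted p = 0.0464, and over 0.05 in 4 alternatives). With the culture as a block its laser step between T15 and T30 was called too (adjusted p = 0.00146).

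*HXT7* with *HXT6*, the near-identical pair, carried the largest share of the sum at T0, and *HXT7* was lower in laser cells at T60 in every library, a difference that was called under some alternatives. *HXT7* had an RPKM of 530, 1327 and 1705 in laser libraries and 411, 1409 and 1890 in control libraries at T0. At T15 it had 119, 204 and 319 in laser libraries and 95.2, 115 and 240 in control libraries, and at T30 33.9, 59.3 and 79.3 in laser libraries and 40.4, 46.2 and 90.6 in control libraries. The ranges of laser and control libraries overlapped at these 3 times. Within cultures, the laser library was the higher in 3 of 3 at T15. The log2 difference of *HXT7* there was 0.52 (adjusted p = 0.331, limma, and 0.0101 with the culture as a block, under 2-fold). At T60 it had 44.3, 66.4 and 79.0 in laser libraries, against 100, 138 and 189 in control libraries, all laser libraries below the control libraries. The log2 difference at T60 was -1.15 ± 0.29 (adjusted p = 0.198, limma), and it was called with the culture as a block (adjusted p = 6.20e-10) and after rescaling (-1.25, adjusted p = 0.0252). The block fit has only 3 cultures to estimate the spread of a gene, so this p-value leans on the spread of other genes. Its size does not measure replication over cultures. *HXT6* had 1.09, 4.40 and 7.13 in laser libraries and 4.11, 6.37 and 19.2 in control libraries at T60 (-1.02 ± 0.61, adjusted p = 0.812, and 0.0142 with the block). With the values of both genes summed the T60 difference was -1.16 ± 0.31 (adjusted p = 0.221).

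The summed *HXT6* and *HXT7* level fell between T0 and T15 by 2.43 ± 0.53 in laser cells (adjusted p = 0.00324) and by 2.92 ± 0.53 in control cells (adjusted p = 3.55e-04). From T15 to T30 the step was -1.84 ± 0.53 in laser and -1.32 ± 0.53 in control cells (adjusted p = 0.0673 and 0.208). From T30 to T60 it was 0.19 ± 0.53 in laser and 1.33 ± 0.53 in control cells (adjusted p = 0.895 and 0.434), and the difference of these steps was -1.15 ± 0.75 (adjusted p = 0.622). With the culture as a block the steps from T15 to T30 of *HXT7* in laser (adjusted p = 1.21e-05) and control cells (3.31e-04) and its step from T30 to T60 in control cells (0.00102) were called. The same steps were called for *HXT6*, with 0.00454, 0.00222 and 0.00203, and the difference of the steps from T30 to T60 was called for *HXT6* (0.0423), *HXT7* (0.0279) and also *HXT5* (-1.69, 0.00629). Without the libraries numbered 2 the steps to T15 of both genes lost their call, with an adjusted p of 0.22 and 0.241 in laser and 0.0979 and 0.159 in control cells for *HXT7* and *HXT6*.

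Of the sensors, *RGT2*, the sensor of high glucose, at chromosome IV 213351 to 215642, lay between 8.83 and 27.4 RPKM over the 24 libraries, a 3.11-fold range and the narrowest of the 10 genes. Laser and control means of *RGT2* were 22.3 ± 1.82 and 20.7 ± 5.95 at T0, 16.2 ± 2.5 and 13.6 ± 3.22 at T15, 14.8 ± 3.09 and 14.14 ± 2.42 at T30, and 16.2 ± 5.90 and 10.9 ± 3.14 at T60. None of its 4 laser differences, 0.14, 0.25, 0.05 and 0.51 on the log2 scale, nor any of its steps was called, and after rescaling those at T15 and T30 were -0.05 and -0.12. *SNF3*, the sensor of low glucose, at chromosome IV 111580 to 114234, had means of 13.6 ± 6.8 in laser and 8.26 ± 5.16 in control cells at T0 and of 3.44 ± 1.25 and 2.61 ± 1.13 at T15. *SNF3* fell by 1.62 ± 0.47 in laser cells (adjusted p = 0.0254, and 0.426 and 0.129 without the libraries numbered 2 and 3). Its control step was -1.19 ± 0.47 (adjusted p = 0.0603) and was called with the culture as a block (adjusted p = 0.00416) and without the libraries numbered 1 (adjusted p = 0.00225). At T60 *SNF3* had 5.94 ± 2.51 in laser and 4.72 ± 1.92 in control cells. It was not called between laser and control at any time, with 95% intervals between -1.08 and 2.09 over the 4 times.

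*MTH1*, whose protein the sensor signal removes, at chromosome IV 1014401 to 1015702, followed the carriers of higher affinity. Its RPKM at T0 was 25.3, 83.9 and 117 in laser libraries and 8.07, 44.3 and 56.9 in control libraries. The laser library was 3.14, 1.90 and 2.05 times the control library of the same number. The difference, 1.16 on the log2 scale, had an SE of 0.77 (adjusted p = 1.0, limma), and with the culture as a block an SE of 0.16 (adjusted p = 0.0281, called, 1 of the 10 genes where 0.544% of all genes were called). At T15 *MTH1* had 2.84, 4.51 and 8.08 in laser libraries and 2.42, 1.48 and 2.59 in control libraries, laser above control but not called (0.89 ± 0.43, adjusted p = 0.146). It fell to T15 by 3.47 ± 0.55 in laser cells (adjusted p = 1.62e-04) and by 3.20 ± 0.55 in control cells (adjusted p = 2.03e-04). At T30 means were 1.94 ± 0.241 in laser and 1.5 ± 0.441 in control cells, and at T60 10.3 ± 3.8 and 14.4 ± 4.38. *MTH1* rose from T30 to T60 by 1.89 ± 0.55 in laser cells (adjusted p = 0.0272) and by 2.60 ± 0.55 in control cells (adjusted p = 0.0185). Without the libraries numbered 2 none of these 4 steps was called (adjusted p of 0.063, 0.0793, 0.493 and 0.874), and without those numbered 3 neither step to T60 was (0.103 and 0.135).

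Over the first 15 min in medium 8 of the 10 genes were called in laser cells, 1 higher and 7 lower, where 7.01% of 6146 genes were called (2.75% higher and 4.26% lower), and 7 of the 10 in control cells, 1 higher and 6 lower, where 13.7% were called (1.56% higher and 12.1% lower). From T15 to T30 limma called 0 of the 10 in laser cells (2 with an unadjusted p under 0.05) and 0 in control cells (3), where 1.66% and 2.99% of all genes were called. From T30 to T60 it called 5 of the 10 in laser cells, 4 higher and 1 lower, where 6.13% were called (1.04% higher and 5.09% lower), and 3 higher in control cells, where 0.797% were called (0.374% higher). After rescaling, the control step to T15 had 261 higher and 423 lower calls over all genes, against 96 and 745, the laser step from T15 to T30 had 33 and 79, against 16 and 86, and the laser step from T30 to T60 had 102 and 245, against 64 and 313. Leaving out the libraries numbered 2 lowered the calls over all genes at the first step to 70 of 431 in laser cells and to 209 of 841 in control cells. Of the differences between the laser and control steps, 2 of the 10 genes were called from T0 to T15, none from T15 to T30 (0 with an unadjusted p under 0.05, where 0.537% of all genes were called), and none from T30 to T60 (2 with an unadjusted p under 0.05, where 2.34% were called). After rescaling, the difference of the steps to T15 had 191 higher and 64 lower calls, against 243 and 15, and that of the steps from T30 to T60 had 46 and 140, against 16 and 128.

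**Figure D4:**
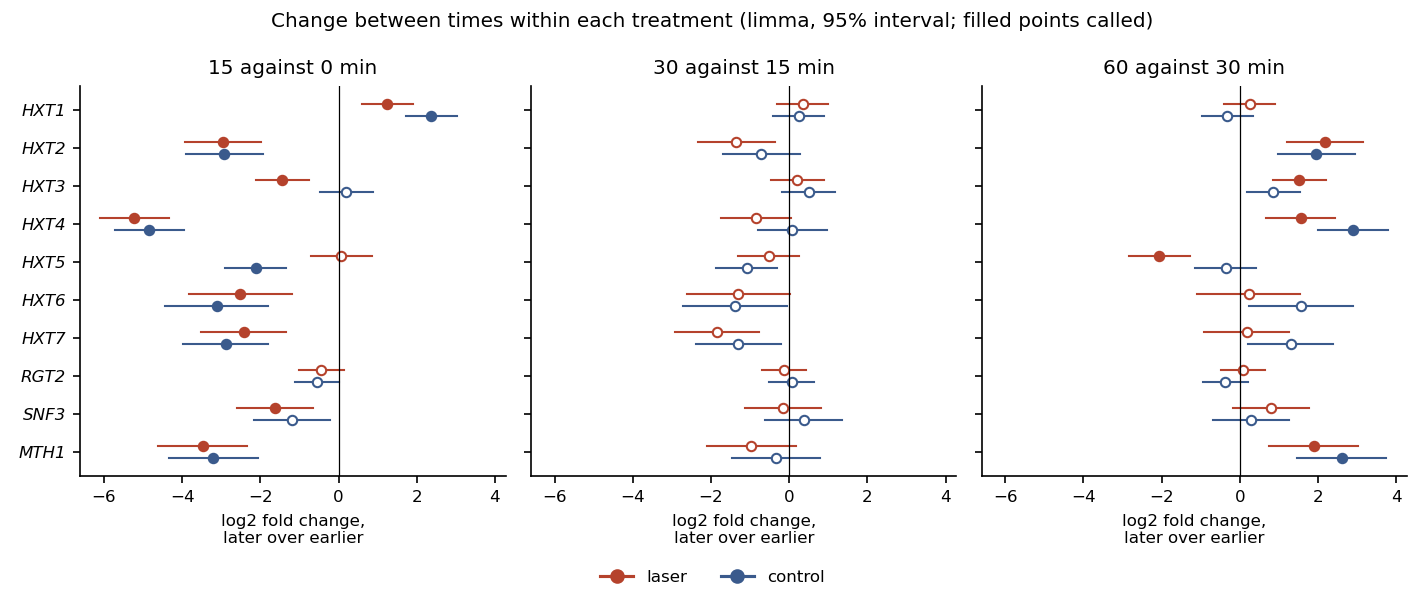
Log2 fold change of each of the 10 genes (rows) between successive times (panels), later over earlier, for laser cells in red above control cells in blue, with 95% intervals from limma and filled points for called steps. *HXT3* and *HXT5* are the genes whose laser and control steps to 15 min differed in the test of the difference.

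The genes whose log2 levels ran most closely with each of these over the 24 libraries were taken as a description, since the libraries share cultures and times. *HXT5* ran with *GLO1*, a glyoxalase gene (Pearson r = 0.985 over 24 libraries), and *AMS1*, a vacuolar mannosidase gene (0.984). *HXT7* ran with *SDH1*, a subunit of succinate dehydrogenase (0.984), and *ATP2*, a subunit of the mitochondrial ATP synthase (0.967), and *HXT6* with the same genes (0.970 and 0.960). *HXT2*, *HXT4* and *MTH1* each ran most closely with *GDH1*, a glutamate dehydrogenase gene (0.958, 0.948 and 0.954), and next with *MAL33*, a maltose regulator (0.924), *GCV1*, of glycine breakdown (0.929), and *YNL144C* (0.944). *HXT1* ran with *YJR124C* (0.951) and *ELP6*, an Elongator subunit (0.946), *HXT3* with *SCW10*, a cell wall protein gene (0.927), and *ADE6*, of purine synthesis (0.919), and *RGT2* with *SPT8*, of the SAGA complex (0.922), and *UME1* (0.918). Within the 10 genes, *HXT1* ran opposite to *HXT7* (r = -0.72), *HXT4* (-0.71), *HXT6* (-0.69), *HXT2* (-0.62), *MTH1* (-0.60) and *HXT5* (-0.60), and *HXT3* opposite to *HXT5* (-0.51), while *HXT6* and *HXT7* (0.97) and *HXT2* and *MTH1* (0.96) ran together.

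Without the culture as a block, none of the other genes of the glucose pathway was called between laser and control cells at T0 or T60. Over all genes 0.017% and 0.238% were called at these times. The sensor pathway partners *STD1*, *RGT1*, *YCK1*, *YCK2*, *GRR1*, *CYC8* and *TUP1* gave 0 of 7 calls by limma at every time (0 with an unadjusted p under 0.05 each time), with median log2 differences of -0.02, 0.00, -0.07 and -0.15 at T0, T15, T30 and T60. At T15 and T30 13.1% and 11.8% of all genes were called. With the culture as a block 2 of the 7 had an adjusted p under 0.05 at T15 (limma), higher in laser cells but under 2-fold. The genes of hexose phosphorylation, the step after uptake, gave 3 of 4 higher at T15 and at T30, where 12.3% and 10.6% of all genes were called higher. *GLK1*, a glucokinase gene, had a mean RPKM of 691 ± 64 in laser and 232 ± 82.0 in control cells at T15 (1.63 ± 0.24, adjusted p = 8.01e-04) and of 381 ± 139 and 47.1 ± 25.6 at T30 (3.03 ± 0.37, adjusted p = 3.80e-04). *HXK1*, a hexokinase gene, differed by 1.17 and 3.10 on the log2 scale at T15 and T30 (adjusted p = 0.0101 and 0.00124), and *EMI2*, a glucokinase-like gene, by 1.63 and 1.92 (adjusted p = 5.91e-04 and 0.00433). At T60 *HXK1* differed by -1.05 (adjusted p = 0.426, limma), with all laser libraries below the control libraries. With the culture as a block 1 of the 4 genes was called lower at T60, where 3.13% of all genes were called in either direction. The lists gave medians of 1.40 and 2.48 for hexose phosphorylation at T15 and T30, against 0.29 and 0.15 over all genes.

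Of 13 genes of the Snf1 kinase and the Mig repressors 1 was called at T15 and at T30, *SIP2*, a subunit of the Snf1 kinase (1.26 and 1.07, adjusted p = 0.00367 and 0.0283), where 13.1% and 11.8% of all genes were called. In the Gpr1 receptor and protein kinase A branch, which also reads glucose, *TPK2*, a catalytic subunit gene of the kinase (1.38), and the G protein gene *GPA2* (1.40) were higher at T15, with an adjusted p of at most 0.00152. At T30 *TPK2* (1.26) was higher and *RGS2*, a regulator of Gpa2, was lower, with 49.3 ± 5.75 in laser and 102 ± 10.3 RPKM in control cells (-1.04, adjusted p = 0.00377). Of 6 genes that direct ubiquitination of carriers 3 were higher at T15, where 12.3% of all genes were called higher, the adaptor genes *BUL1* (1.32, adjusted p = 0.0032), *ROD1* (1.2, adjusted p = 0.0194) and *CSR2* (1.11, adjusted p = 0.0426), and *BUL1* was higher at T30 (1.62, adjusted p = 0.0045). Of 10 further transporters of the family 1 to 3 passed the filter on low values at a time, and *HXT11* passed it at T30 only through its laser libraries, so no test of it is given. *HXT11* had 13, 20 and 14 reads in laser libraries against 0, 2 and 0 in control libraries, and its near-identical copy *HXT9* makes the source of these reads uncertain.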

How the data were processed

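Yeast poly(A) RNA was sequenced on a MiSeq as paired reads of 75 bases. The authors aligned the reads to S288C with SeqMan NGen and deposited RPKM values for 6427 genes from ArrayStar in 4 tables, 1 per time, in which 0.021 stands for no reads. Whether counting used strand is not given in the sources used here, so overlapping antisense reads may be included. The 3 comparison columns that the authors deposited (a p-value, a T score and a fold-change ratio, laser against control) were not used, and their group means were not used either.

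Where 3 or more libraries reached an RPKM of 1, the gene entered a two-sided test by limma 3.58.1 (R 4.3.3). Its input was log2(RPKM + 1), and the variance was allowed to follow the mean level, with Benjamini-Hochberg adjustment over all genes tested. Laser and control were compared within each time (6 libraries, the study's unpaired design), and steps between times and their differences came from 1 fit of 8 group means. Calls needed an adjusted p under 0.05 and a difference of at least 2-fold. Alternatives were a pseudocount of 0.1, no filter, median-ratio rescaling, no variance trend, *HXT6* and *HXT7* summed, the culture as a block, and leaving out libraries. By the study's methods each culture was split into a laser and a control portion, and the replicate number was read as the culture. Deviations of same-numbered libraries from their group means correlated with r of -0.020 to 0.467 over genes, above 0.1 in 9 of 12 pairs. The other pairs were all those numbered 2, at T0 (0.023), T30 (0.024) and T60 (-0.020). For these pairs the values give little sign of a shared culture. Without the block, the p-values treat libraries as independent, although laser and control portions and successive times came from the same cultures. With the block, they measure the spread left within cultures. In both fits the spread of a gene is estimated in part from other genes. The fit was tested on simulated data.

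Depth was recovered from RPKM steps as the read total that put most low values near whole reads. Multiples of a total also give whole reads, so a much smaller total was taken where its share was close. At the chosen totals 92.9% to 96.6% of low values per library fell within 0.08 of a whole read, where evenly spread values would give 16.0%. The totals were chosen by this share, so it is no separate check on them. Sequences and coordinates came from the RefSeq R64 genome, to which 6155 of 6427 genes matched by name (Python 3.11.15, NumPy 2.4.6, pandas 2.3.3, Biopython 1.88, Matplotlib 3.10.9). The text names all 10 genes, up to 4 called genes per pathway list by p, and, for each of the 10 with a mean RPKM of at least 10, the other 2 genes of highest Pearson r. The 10 genes and the lists were chosen with earlier results of these data known. Part of 1 pathway list is not reported here.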

Additional observations from a re-analysis of the deposited data

Results flagged for a closer look

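The laser effect on 2 of the 10 genes differed between T0 and T15 by the test of the difference itself, where 4.2% of 6146 genes were called. For *HXT5* the log2 difference between laser and control cells was 2.19 higher at T15 than at T0 (adjusted p = 0.0173, limma), and for *HXT3* the same quantity was -1.64 (adjusted p = 0.0412). Without the libraries numbered 2 neither was called (adjusted p = 0.706 for *HXT5* and 0.597 for *HXT3*), and without those numbered 3 neither was (0.0787 and 0.0677).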

How the results depend on the processing

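Of 1264 values of the 10 genes under the alternatives, 1197 kept their side of the threshold, 41 lost their call, 26 gained one and 0 called values changed sign. Of the 1197, 969 were called under neither setting, and 44 of these had the other sign. Counts over all genes moved more. With the culture as a block 32 genes were called at T0 (against 1), 184 at T60 (against 14), 203 for the laser step from T15 to T30 (against 102), 86 for the control step from T30 to T60 (against 49), and 595, 88 and 327 for the 3 differences of steps (against 258, 33 and 144). Rescaling gave 46 at T60 and 58 for the difference of steps from T15 to T30, and no variance trend gave 3 at T0. Leaving out 1 library gave 0 to 3 calls at T0, 617 to 1037 at T15, 470 to 949 at T30 and 5 to 124 at T60, where the low value lacked laser replicate 2 and the high value laser replicate 1. Leaving out a culture gave 70 to 464, 0 to 107 and 73 to 364 calls for the successive laser steps, 209 to 1185, 26 to 192 and 0 to 58 for the control steps, and 3 to 453, 0 to 23 and 1 to 130 for the differences of steps, and each of these lows lacked the libraries numbered 2. The causes were not tested. Few reads limit *MTH1*, *HXT6* and *HXT5* at T30 and T60.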
